A study of Homo sapiens with 16 samples.

Results

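The 12 knockdown libraries of a TPX2 depletion experiment were examined for genes whose level moved with the TPX2 transcript that was left after knockdown. The cells were IMR32, a human neuroblastoma line with amplified MYCN. They were transfected with si45, si46 or si47, 3 siRNAs (short double-stranded RNAs that direct cleavage of a matching transcript) against TPX2, or with a non-targeting siRNA, siNTC. Each siRNA had 4 libraries, described in the series as biological replicates, and 48 h stands in the names of the deposited columns. The 12 TPX2 siRNA libraries of the 16 in all were taken by their labels, and log2 CPM (counts scaled to library size) of each gene was regressed on log2 CPM of TPX2, first with each siRNA given its own mean (within siRNA) and then over all 12 libraries together. A slope of 1 means that the gene moved in proportion to TPX2, and a slope of -1 that it moved in inverse proportion. No siNTC library entered either regression. All groups are a single cell line, the control cells too received an siRNA, and the siRNA sequences were not used here.

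The TPX2 protein binds microtubules and helps build the mitotic spindle. It is released from importin in mitosis, nucleates microtubules near chromosomes, and binds and activates the kinase AURKA. Its transcript belongs to the genes that cells switch on in G2 and M phase, so its level in a culture also depends on how many cells are in those phases. Measurements here are from bulk RNA, in which fewer cells of a type and less RNA per cell cannot be told apart.

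TPX2 (ENSG00000088325) was measured at 80.9, 79.4, 121 and 85.1 CPM in si45 replicates 1 to 4. It was at 90.9, 79.8, 93.8 and 62.2 CPM in si46, and at 68.7, 69.7, 76.3 and 71.3 CPM in si47. The siNTC libraries held 315, 339, 297 and 359 CPM, so no knockdown library reached a control library. Over the 12 knockdown libraries TPX2 spanned 1.95-fold, and 67.8% of its variation on the log2 scale lay between replicates of the same siRNA.

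That variation was uneven. The SD of log2 TPX2 was 0.286 in si45 and 0.269 in si46, against 0.0625 and 0.0663 from counting alone. In si47 the SD was 0.0670 and counting alone gives 0.0702, so the si47 libraries held no TPX2 spread beyond counting error. Of the variation within siRNA, si45 carried 51.6%, si46 45.6% and si47 2.82%. Single libraries weighed heavily: si45 replicate 3, at 121 CPM (95% exact Poisson interval 112 to 130, counting error only), carried 37.9%, and si46 replicate 4, at 62.2 CPM (55.7 to 69.3), carried 29.4%. Replicate 3 had the highest TPX2 under each of the 3 siRNAs, and the 3 replicate 3 libraries together carried 49.6%. Most of that was in si45, with 9.90% in si46 replicate 3 and 1.89% in si47 replicate 3. The si46 replicate 3 interval (86.1 to 102 CPM) overlapped that of si46 replicate 1 (84.4 to 97.8 CPM). In si47 the replicate 3 interval (69.4 to 83.6 CPM) overlapped that of replicate 1 (62.4 to 75.4 CPM). In siNTC, replicate 3 had the lowest TPX2.

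**Figure D1:**
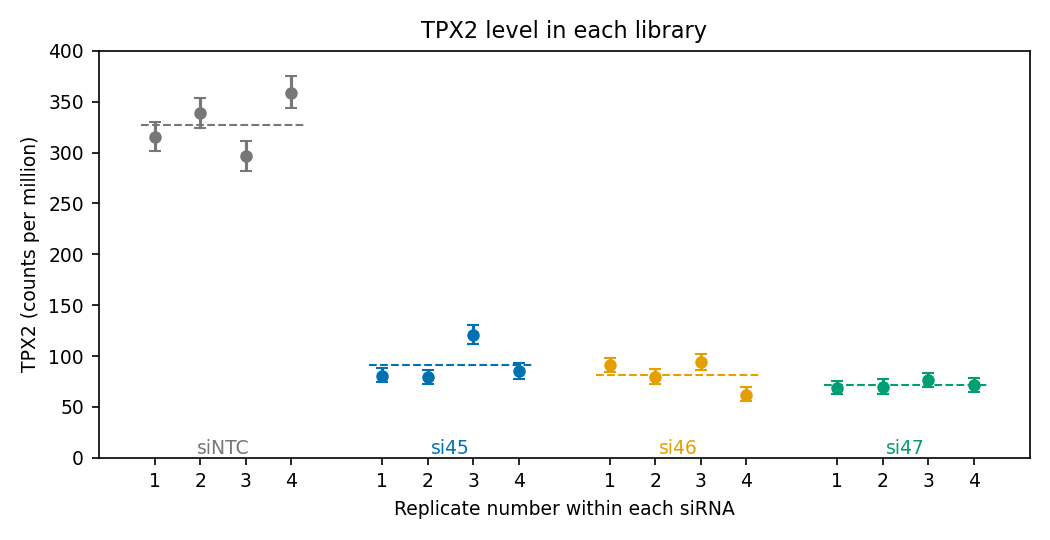
TPX2 in CPM (vertical axis) in each of the 16 libraries, by siRNA and replicate number, with 95% exact Poisson intervals as error bars and the mean of each group as a dashed line. The 12 knockdown libraries lie between 62.2 and 121 CPM, replicate 3 is the highest of each knockdown group, and the 4 si47 libraries lie between 68.7 and 76.3 CPM. In si46 and si47 the interval of replicate 3 overlaps that of replicate 1.

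Totals over the 12 libraries ran from 5318159 to 7864343 counts. The cells carried the defining transcripts of sympathoadrenal neuroblastoma in every knockdown library, with GATA3 at 1152 to 1382 CPM and HAND2 at 752 to 889 CPM. Of the enzymes of noradrenaline synthesis, DBH was at 134 to 196 CPM and TH at 1.49 to 5.03 CPM. Of 6 mesenchymal markers, VIM was at 225 to 315 CPM, SNAI2 at 5.50 to 10.5 CPM, FN1 at 4.06 to 9.43 CPM and YAP1 at 0.629 to 3.52 CPM, while NOTCH2 had at most 4 counts and PRRX1 at most 1 count in a library. Of markers of other cells, COL1A1 of fibroblasts was at 18.1 to 64.6 CPM, PTPRC of leukocytes had at most 9 counts, PECAM1 of endothelium at most 5 and KRT18 of epithelium at most 1.

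Within siRNA, 42 of 13926 genes tested followed TPX2 at an adjusted p under 0.05 (0.302%, edgeR quasi-likelihood test, Benjamini-Hochberg adjustment over all genes). 32 genes (0.23%) had a negative slope, so that they were higher where less TPX2 was left, and 10 (0.0718%) had a positive slope. At an unadjusted p under 0.05, 868 genes were positive (6.23%) and 876 negative (6.29%), and the median slope over all genes was -0.01. Absolute slopes of the 42 genes ran from 0.69 to 1.96. The adjusted p of the last gene inside the threshold was 0.0485 (SEC61G), and that of the first outside it was 0.0525 (GAL3ST3). The 42 genes were chosen by these slopes, which therefore describe them and add no further support. The count of 42 held only in some fits. With the replicate number added as a term to the same 12 libraries, 0 genes passed (959 at an unadjusted p under 0.05, edgeR). Leaving out si45 replicate 3 alone also left 0 (717 unadjusted), as did leaving out the 3 replicate 3 libraries together (401 unadjusted). In the fit with the replicate number all 42 slopes kept their sign, against 10113 of 13926 over all genes. The median slope was then -0.65 in place of -0.97 for the 32 negative genes and 0.78 in place of 0.95 for the 10 positive ones. Slopes and adjusted p-values of single genes below are from the fit without that term.

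Transcription factors of the immediate early response, which cells induce within minutes of growth factor or stress signals, were among the genes with negative slopes on TPX2. EGR1 (ENSG00000120738, chr5:138465490-138469315 on the plus strand, GENCODE v29, GRCh38), a zinc finger factor of that class, was at 56.8, 66.2, 23.6 and 56.6 CPM in si45, at 46.8, 79.7, 39.7 and 75.3 CPM in si46 and at 70.1, 102, 57.0 and 76.2 CPM in si47. The siNTC libraries held 8.02, 10.2, 9.27 and 7.29 CPM of EGR1. Replicate 3 was the lowest of each knockdown group, and every knockdown library lay above every control library. The EGR1 slope was -1.96 (SE 0.339, edgeR adjusted p 0.0194).

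JUNB, a subunit of the AP-1 transcription factor, was at 49.2, 43.4, 21.7 and 39.5 CPM in si45, at 36.3, 47.1, 38.7 and 49.7 CPM in si46 and at 71.7, 46.6, 44.9 and 67.2 CPM in si47. In siNTC it was at 24.3 to 27.4 CPM, and si45 replicate 3 was the knockdown library that fell below these. Its slope was -1.32 (SE 0.304, edgeR adjusted p 0.0485). IER5, an immediate early gene that is also induced by DNA damage, had a slope of -0.95 and lay at 102 to 203 CPM in the knockdown libraries against 60.8 to 87.6 CPM in siNTC, with no overlap. FOS, the partner of JUN proteins in AP-1, had the steeper slope of -3.42 (SE 0.800) and an adjusted p of 0.0530, outside the threshold. It was low throughout, at 1.56 to 11.1 CPM.

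The EGR1 promoter is shown because EGR1 was the named gene with both the steepest slope past the threshold and the largest difference from control among the 42 genes. Immediate early promoters are known for CArG boxes, the sites of serum response factor. A search of the window from 250 bases before to 50 bases after each RefSeq gene start (GRCh38.p14), on both strands, found 2 in EGR1, given here on the plus strand with the box in capitals.
EGR1 chr5:138465364-138465393: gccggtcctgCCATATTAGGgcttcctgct
EGR1 chr5:138465386-138465415: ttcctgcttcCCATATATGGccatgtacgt
A CArG box was in 1.02% of the 10059 promoters of tested genes, and EGR1 was the 1 holder among the 25 promoters found for the 32 negative genes. A match is a description of the letters and not of bound factor.

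EEF1A1, EIF5A and EIF1, which take part in translation, were also among the 32 negative genes, and the 10 positive genes held MRPL55 and WDR18, which are tied to ribosomes. EEF1A1 carries aminoacyl-tRNA to the ribosome, EIF5A helps the ribosome through stalling sequences, and EIF1 takes part in start codon selection. EEF1A1 was at 294, 290, 193 and 288 CPM in si45, at 247, 252, 203 and 303 CPM in si46, at 321, 372, 268 and 366 CPM in si47, and at 194, 215, 207 and 240 CPM in siNTC. Replicate 3 was again the lowest library of each knockdown group, and in si45 and si46 it lay within or just below the range of the controls. The slopes were -0.95 (SE 0.181) for EEF1A1, -1.07 (SE 0.191) for EIF5A and -0.93 (SE 0.179) for EIF1, with edgeR adjusted p of 0.0194, 0.0129 and 0.0194, and the EEF1A1 slope was -0.42 with the replicate number as a term.

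4 ribosomal proteins also passed the threshold with negative slopes: RPS2 (-0.80), RPS15A (-0.96), RPS18 (-0.79) and RPL10A (-0.73). RPS2, a protein of the small ribosomal subunit, ran from 1040 CPM in si45 replicate 3 to 1776 CPM in si47 replicate 2. Over all 84 ribosomal protein genes, a list added after values were seen, the median slope was -0.26 against -0.01 for all genes, and 66 of the 84 slopes were negative. With the replicate number as a term this median was -0.0016, next to -0.0038 for all genes. Several of these genes have many near-identical pseudogenes: the annotation names 39 for EEF1A1, 25 for FTH1, 23 for RPS15A and 20 for RPS2, and how reads shared with such copies were counted is not given in the sources used here.

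PFN1 (ENSG00000108518, chr17:4945652-4949061, minus strand), the actin-binding protein profilin, had the lowest p of all genes. It was at 162, 138, 71.6 and 125 CPM in si45, at 118, 139, 84.2 and 163 CPM in si46, at 162, 143, 126 and 164 CPM in si47, and at 79.4, 119, 71.1 and 95.4 CPM in siNTC. PFN1 was high where TPX2 was low, and in si45 and si46 replicate 3 it fell within the range of the controls. Its slope was -1.54 (SE 0.216, edgeR adjusted p 0.00083).

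MYCN (chr2:15940564-15947007, plus strand), the amplified oncogene of this line, was at 1441, 1233, 858 and 1257 CPM in si45, at 1190, 1412, 1065 and 1465 CPM in si46 and at 1590, 1164, 1048 and 1362 CPM in si47. In siNTC it was at 920, 1108, 891 and 941 CPM, and 9 of the 12 knockdown libraries lay above all 4 controls. The MYCN slope was -0.95 (SE 0.198, edgeR adjusted p 0.0276).

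The remaining negative genes were of mixed function. They included FTH1, the heavy chain of the iron store ferritin (-1.15), OCIAD1 (-0.92) and OCIAD2 (-1.61), neighbouring membrane proteins of endosomes and mitochondria, ARF4, a GTPase of Golgi traffic (-1.12), LDHA, lactate dehydrogenase (-1.01), SLC25A3, the mitochondrial phosphate carrier (-0.83), SERF2 (-0.86) and CELF3, a neuronal splicing factor (-0.95). MIR1244-2 (-1.62) is annotated as a miRNA gene, but reads from the ends of polyadenylated transcripts do not measure a mature miRNA, so its value is that of reads assigned to this locus.

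**Figure D2:**
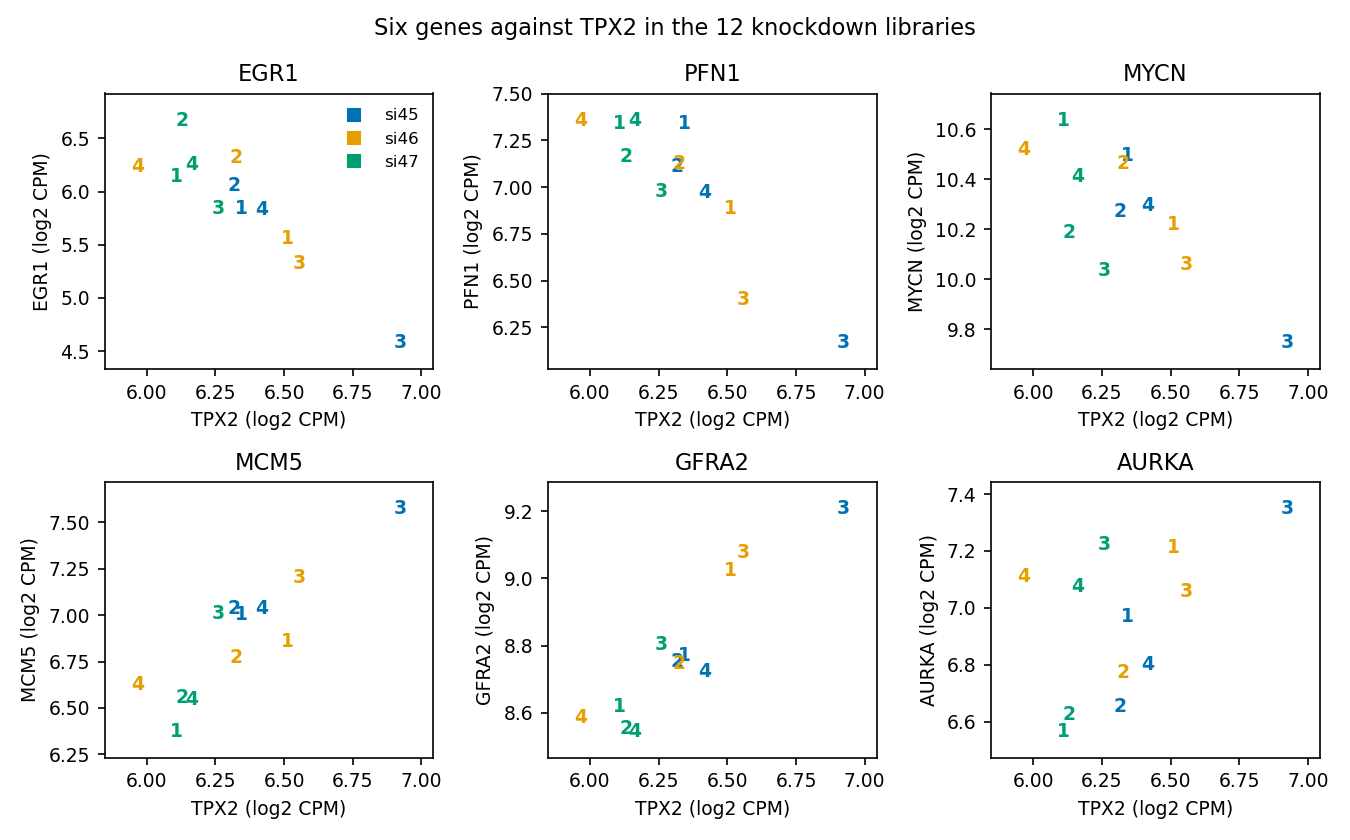
Log2 CPM of EGR1, PFN1, MYCN, MCM5, GFRA2 and AURKA (vertical axes) against log2 CPM of TPX2 (horizontal axis) in the 12 knockdown libraries, each drawn as its replicate number in the colour of its siRNA. si45 replicate 3 stands alone at the right of every panel, with the lowest EGR1 (23.6 CPM), PFN1 (71.6 CPM) and MYCN (858 CPM) and the highest MCM5 (190 CPM) and GFRA2 (591 CPM), while AURKA is more scattered.

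Of the 10 genes that moved in the same direction as TPX2, MCM5 and CTCF belonged to the cell cycle lists. MCM5 (ENSG00000100297, chr22:35400063-35425430, plus strand), a subunit of the replicative helicase, was at 128, 131, 190 and 131 CPM in si45, at 116, 109, 147 and 98.4 CPM in si46, at 82.7, 93.8, 128 and 93.1 CPM in si47 and at 166, 150, 152 and 159 CPM in siNTC. Replicate 3 was the highest of each knockdown group, and 11 of the 12 knockdown libraries lay below all controls. Its slope was 0.96 (SE 0.199, edgeR adjusted p 0.0276), and 0.36 with the replicate number as a term.

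GFRA2, a co-receptor for the neurotrophic factor neurturin, had the lowest p of the 10. It was at 436, 431, 591 and 422 CPM in si45, at 520, 429, 540 and 384 CPM in si46, at 393, 375, 446 and 373 CPM in si47 and at 605, 502, 636 and 439 CPM in siNTC. Its slope was 0.82 (SE 0.152, edgeR adjusted p 0.0186), and replicate 3 was the highest in all 4 groups, siNTC included. CTCF, the zinc finger protein that anchors chromatin loops, had the shallowest slope past the threshold (0.69, adjusted p 0.0427).

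The other positive genes were MPDU1, which is needed for use of the dolichol sugar donors of glycosylation (1.03), PGRMC2, a haem-binding membrane protein (0.91), WDR18, a factor of ribosome and chromatin assembly (0.88), MRPL55 of the mitochondrial ribosome (0.95), FMNL3, a formin that extends actin filaments (1.48), TMEM151B (1.07) and TSSC4 (0.97).

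The partners and neighbours of TPX2 in mitosis did not pass the threshold within siRNA. AURKA, the kinase TPX2 activates, was at 125, 100, 163 and 111 CPM in si45, at 148, 109, 133 and 138 CPM in si46, at 94.5, 98.3, 149 and 134 CPM in si47 and at 168, 168, 156 and 190 CPM in siNTC. It was highest in replicate 3 under si45 and si47, and in replicate 1 under si46. The AURKA slope was 0.62 (SE 0.274, edgeR adjusted p 0.37). KIF11, the bipolar spindle motor, had a slope of 0.24 (SE 0.258), FOXM1, a transcription factor of G2 genes, 0.06 (SE 0.218), and HMMR, a spindle protein that binds TPX2, -0.13 (SE 0.214). The signs of the KIF11, FOXM1 and HMMR slopes changed under other settings, and none of the 3 differed from 0 beyond its error.

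Lists of genes gave the wider view, with the all-gene median of -0.01 and 48.9% positive slopes beside them. The lists had been used or drawn up with earlier results of these data known. Of 56 G2M genes, 37 slopes were positive with a median of 0.14, and CTCF alone passed. Of 43 S phase genes, 28 were positive with a median of 0.21, and MCM5 alone passed. The 21 spindle proteins and TPX2 partners had a median of 0.15 and the 19 cell cycle regulators one of 0.05, with none past the threshold in either list. With the replicate number as a term the medians were 0.0021 for G2M, -0.036 for S phase, -0.0030 for the spindle list and -0.15 for the regulators. The regulators ran from -0.056 to 0.22 when 1 library was left out. TUBB4B, a tubulin, came nearest among G2M genes (0.75, adjusted p 0.0589), while CKS2, a subunit of cyclin-dependent kinases, had a slope of -0.82 (adjusted p 0.127).

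Targets of p53, the factor that arrests or kills cells with damaged DNA, lay on the negative side. Of 32 targets tested, 27 slopes were negative, 15 of them at an unadjusted p under 0.05, the median was -0.64, and none passed the adjusted threshold. Over all genes, 876 of 13926 (6.29%) were negative at that unadjusted p (edgeR), and 48.9% of slopes were positive. The median of the p53 targets was -0.22 with the replicate number as a term and -0.30 without the 3 replicate 3 libraries. BBC3, the pro-apoptotic protein PUMA, was at 162, 135, 78.2 and 147 CPM in si45, at 130, 145, 97.8 and 152 CPM in si46, at 239, 270, 154 and 207 CPM in si47 and at 21.2, 26.4, 24.8 and 26.7 CPM in siNTC. Replicate 3 was the lowest of each knockdown group while every knockdown library stayed above every control. Slopes were -1.31 (SE 0.285, adjusted p 0.0563) for BBC3, -0.93 (SE 0.223, 0.0563) for PPM1D, a phosphatase that restrains p53, and -1.28 (SE 0.348, 0.0891) for the stress kinase PLK3. MDM2, the ubiquitin ligase of p53, had a slope of -0.75 (SE 0.241, adjusted p 0.175), and CDKN1A, the cyclin-dependent kinase inhibitor p21, one of -0.64 (SE 0.198, 0.144).

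Stress and immediate early genes had the most negative median of the lists, -1.32 over 17 genes, with 16 slopes negative and EGR1 and JUNB past the threshold. That place in the order depended on replicate 3. The stress median ran from -1.84 to -0.89 when 1 library was left out. It was -0.49 without the 3 replicate 3 libraries, where the mesenchymal list was at -0.63. With the replicate number as a term it was -0.07. The medians of hypoxia genes (-0.23), p53 targets (-0.22) and the mesenchymal list (-0.21) were then lower. So were those of the RNA interference machinery (-0.15), cell cycle regulators (-0.15), interferon (-0.14) and sterol synthesis (-0.13). In the fit without that term, hypoxia genes had a median of -0.41 over 17 genes and LDHA past the threshold. LDHA was also the 1 of 38 MYC target genes past the threshold, and that list had a median of 0.11. The interferon list had a median of -0.22 over 14 genes, sterol synthesis -0.16 over 17, adrenergic identity -0.07 over 24, mesenchymal identity 0.09 over 9, and the RNA interference machinery -0.0049 over 13. The mesenchymal median ran from -0.24 to 0.22 when 1 library was left out. None of these 5 lists held a gene past the threshold, and INSM1 and KLF7, transcription factors of neural crest and neuroendocrine cells, came nearest in the adrenergic list (-1.96 and -0.92, adjusted p 0.0563 for both).

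**Figure D3:**
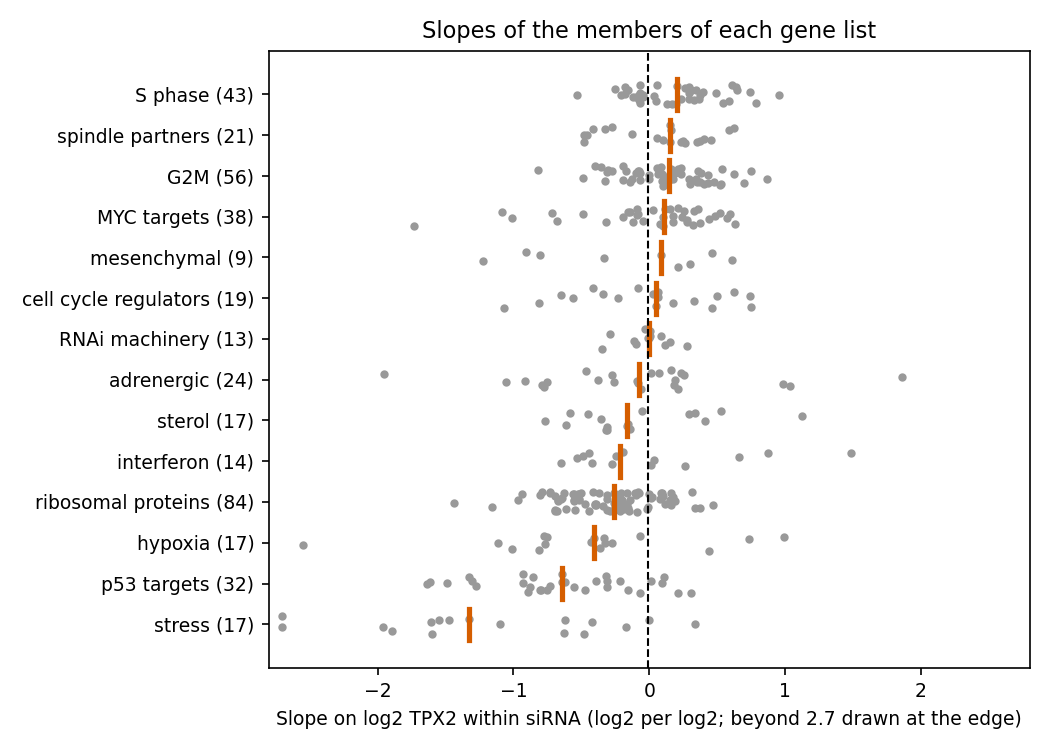
Slope on log2 TPX2 within siRNA (horizontal axis) of each tested member of 14 gene lists, a grey point per gene with small vertical jitter, the median in orange, and the number of genes tested in parentheses. The stress list (median -1.32) and the p53 targets (-0.64) lie farthest to the left and the S phase list (0.21) farthest to the right, in the fit without the replicate number.

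Over the 12 libraries together, with the means of the siRNAs no longer removed, 301 of 13926 genes followed TPX2 (2.16%). 122 slopes were positive (0.876%) and 179 negative (1.29%). 38 of the 42 genes found within siRNA were among them, which is 90.5% of those 42 and 12.6% of the 301. All 301 genes had a slope of the same sign within siRNA. Both fits used the same 12 libraries, and 67.8% of the TPX2 variation lay within siRNA. The overlap and the shared signs are therefore partly built in. This fit also takes in the differences between siRNAs. si47 had the lowest mean TPX2, and in that part of the variation the TPX2 level and the siRNA used cannot be told apart.

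More cell cycle genes passed in this fit than within siRNA, as did more genes as a whole (301 against 42 of 13926). E2F1, the transcription factor that opens S phase, was at 175, 191, 242 and 209 CPM in si45, at 171, 169, 212 and 151 CPM in si46, at 115, 124, 190 and 128 CPM in si47 and at 254, 248, 270 and 256 CPM in siNTC. Its slope was 1.02 (SE 0.197, edgeR adjusted p 0.0073) over 12 libraries and 0.75 (SE 0.217, adjusted p 0.118) within siRNA. MYBL2, which activates G2 genes, had 0.80 (adjusted p 0.0109), BRCA1, a DNA repair protein, 0.81 (0.0056), the helicase BRIP1 0.97 (0.0068), and DTL, a substrate receptor for protein destruction in S phase, 0.75 (0.0150). Within siRNA, with the replicate number as a term, the slopes were 0.17 for E2F1, 0.30 for MYBL2, 0.53 for BRCA1, 0.11 for BRIP1 and 0.058 for DTL. Counts past the threshold over 12 libraries were 8 of 43 S phase genes and 5 of 56 G2M genes, with none negative in either. Over all genes, 0.876% passed with a positive slope.

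E2F sites were searched as TTTGGCGC and TTTCGCGC on both strands of the same promoter windows. They were in 2.14% of the 10059 promoters and in 4 of the 95 promoters found for the 122 positive genes, which is 4.21%. E2F1 and DTL are printed because both are cell cycle genes of this group that hold a site, on the strand of each gene with the site in capitals.
E2F1 chr20:33686387-33686416: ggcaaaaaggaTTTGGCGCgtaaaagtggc
DTL chr1:212035729-212035758: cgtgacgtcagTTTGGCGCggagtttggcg
The E2F1 window is on the minus strand and the DTL window on the plus strand of GRCh38.p14. None of the 8 promoters found for the 10 genes positive within siRNA held these letters.

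On the negative side of the 12-library fit, 10 of the 32 p53 targets passed, with a list median of -0.96. They included BBC3 (-1.72, edgeR adjusted p 0.0281), PPM1D (-0.98, 0.0053), PLK3 (-1.47, 0.00605) and MDM2 (-1.03, 0.0128), whereas CDKN1A had a slope of -1.40 at an adjusted p of 0.0957. 6 of 17 stress genes passed, EGR1 (-1.97) among them, as did 28 of 84 ribosomal protein genes. Over all genes, 1.29% passed with a negative slope. Without si45 replicate 3, 0 genes passed in this fit. OCIAD1 (-1.06) and CELF3 (-1.07) were, with EGR1 and PFN1 (-1.34), the 4 negative genes of lowest p.

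Whether the slope on TPX2 differed between the siRNAs was tested directly. No gene had an adjusted p under 0.05 for the interaction of siRNA and TPX2 (0% of 13926 genes, edgeR; 733 at an unadjusted p under 0.05), and limma on log2 CPM also gave 0 (768 unadjusted). Fitted in si47 alone, where TPX2 varied no more than counting error, the slopes of the 10 positive genes were all positive and 31 of the 32 negative genes were negative, against 50.5% positive over all genes tested. The si47 values entered the fit that chose the genes, so these counts are a description. MCM5 had slopes of 0.95, 0.75 and 3.94 and EGR1 of -2.33, -1.46 and -3.54 in si45, si46 and si47.

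The siNTC libraries had no part in choosing the genes, and the slopes within siRNA did not use the means of the siRNAs. The difference from siNTC still rests on the same 12 knockdown libraries by which the genes were chosen, so it is not a separate set of samples. Against siNTC, the mean of the 12 knockdown libraries changed 1014 of 14193 genes (7.14%), 513 higher (3.61%) and 501 lower (3.53%). The 32 genes with negative slopes were all higher in knockdown than in control, with a median difference of 0.36 on the log2 scale, and 12 of them passed the edgeR test. Of the 10 positive genes, 9 were lower in knockdown, with a median difference of -0.22, and MCM5 and CTCF passed. Over all genes 49.7% were lower. The 14 genes that passed became 31 without si45 replicate 3, 6 without siNTC replicate 3, 5 without siNTC replicate 1 and 31 without replicate 3 of all 4 groups.

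EGR1 differed from control by 2.82 (SE 0.322, edgeR adjusted p 0.00013) on the log2 scale, IER5 by 1.04 (SE 0.130, 2.5e-05), JUNB by 0.85 (SE 0.167, 0.0025) and MCM5 by -0.39 (SE 0.111, 0.0323). PFN1 differed by 0.54 (SE 0.213, adjusted p 0.168) and MYCN by 0.38 (SE 0.129, 0.0904), both outside the threshold. TPX2 itself differed by -2.01.

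**Figure D4:**
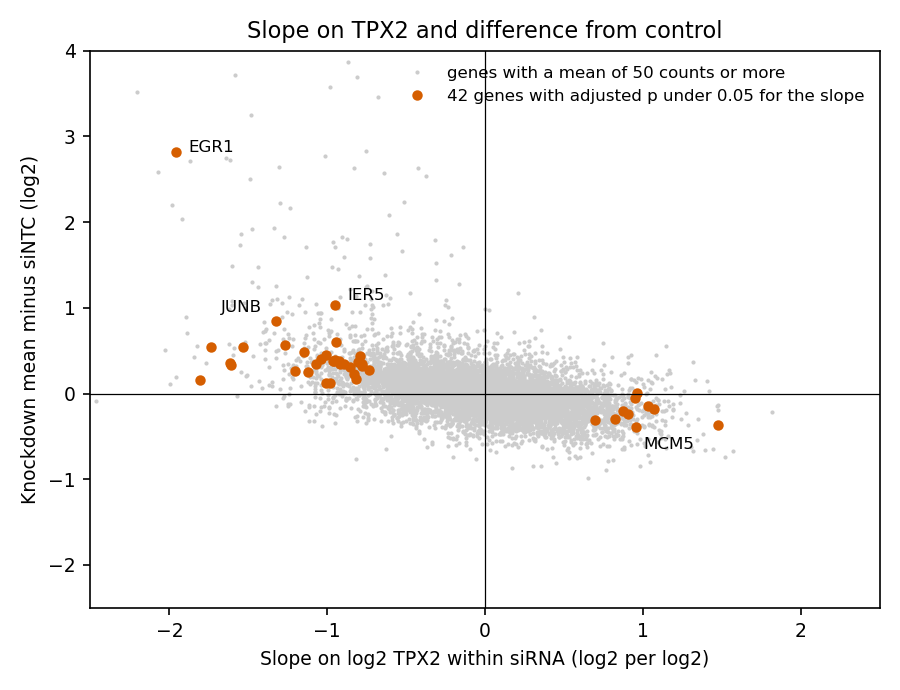
Log2 difference between the mean of the knockdown libraries and siNTC (vertical axis) against the slope on log2 TPX2 within siRNA (horizontal axis), for genes with a mean of 50 counts or more (grey) and the 42 genes that passed the slope test (orange). EGR1 lies at a slope of -1.96 and a difference of 2.82, IER5 at 1.04 and JUNB at 0.85.

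Replicate number moved with TPX2 in these libraries. Among the 42 genes, si45 replicate 3 was the lowest of its group for 32 of 32 negative genes and the highest for 10 of 10 positive genes. si46 replicate 3 was so for 30 and 9 genes and si47 replicate 3 for 27 and 7, which the choice of genes by the slope partly fixes. The siNTC libraries did not enter that choice: there replicate 3 was below the mean of the other 3 for 24 of the 32 negative genes and above it for 7 of the 10 positive genes, against 6969 of 13926 above it over all genes, although its TPX2 was the lowest of the 4 controls. By the measure used for the knockdown groups, siNTC replicate 3 was the lowest for 11 of the 32 negative genes and siNTC replicate 1 for 16. Each of these 2 libraries was the highest for 4 of the 10 positive genes. The median difference of siNTC replicate 3 from the others was -0.11 on the log2 scale for the negative genes and 0.19 for the positive ones. GFRA2 (0.32) and PFN1 (-0.44) moved in siNTC replicate 3 as in the knockdown libraries, and EGR1 (0.14), IER5 (0.08) and MCM5 (-0.06) did not. The labels do not say what a replicate number shares. With the number as a term, 26 of the 32 negative and 9 of the 10 positive genes had an unadjusted p under 0.05 (edgeR). Over all genes 959 of 13926 did, and none had an adjusted p under 0.05. The 42 genes were chosen by their slopes in the same 12 libraries, so their counts are a description. Within siRNA the 3 replicate 3 libraries held 49.6% of the TPX2 variation, so TPX2 and the replicate number were partly confounded. The si45 replicate 3 library alone held 37.9% of the variation.

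Leaving out each library in turn moved the number of genes from 0 to 317. Without si45 replicate 3 it was 0, without replicates 1 and 4 of that siRNA 7 and 24. In si46, leaving out replicate 3 gave 2 genes, replicate 1 gave 75 and replicate 2 gave 72. Leaving out si46 replicate 4, the library with the least TPX2, gave 317 genes, 39 of the 42 among them. Without si45 replicate 3 and si46 replicate 4 together, the 2 libraries farthest from the median of TPX2, 162 genes passed and 6 of the 42 were among them. Leaving out any 1 si47 library gave 38 to 45 genes, and leaving out all 4 gave 46.

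The slopes of the named genes kept their direction without si45 replicate 3, with 0 reversed. Many of these genes were chosen for their slopes with that library included, so this is a description. Without si45 replicate 3 the slopes were -1.59 for EGR1, -1.34 for PFN1, 0.94 for MCM5 and 0.84 for GFRA2, with all adjusted p over 0.05 in that fit. For the fit over 12 libraries, leaving out si45 replicate 3 gave 0 genes (1210 at an unadjusted p under 0.05, edgeR). Leaving out si46 replicate 3 gave 104 and si46 replicate 4 gave 524. In si47 the count was 140 without replicate 1, 172 without replicate 2, 387 without replicate 3 and 199 without replicate 4.

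**Figure D5:**
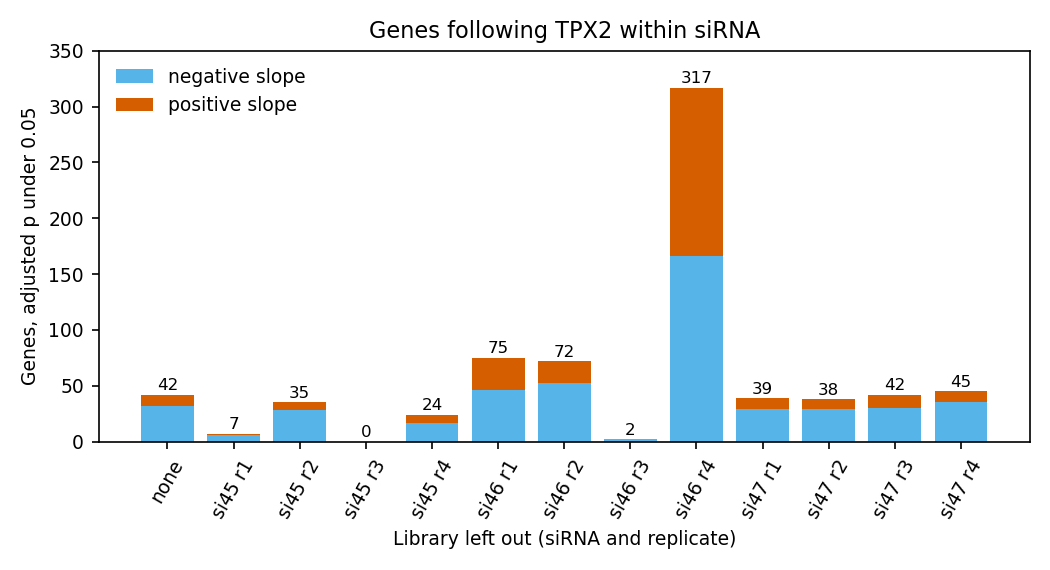
Number of genes that passed an adjusted p of 0.05 for the slope on TPX2 within siRNA (vertical axis) with all 12 libraries and with each library left out in turn (horizontal axis), divided into negative and positive slopes. The count is 42 with all libraries, 0 without si45 replicate 3 and 317 without si46 replicate 4.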

How the data were processed

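The authors deposited whole-number read counts per Ensembl gene in 1 table for 16 libraries, not normalized. Per the labels' protocols, column-extracted, DNase-treated RNA was made into 3' end QuantSeq libraries with 15 PCR cycles and sequenced single-end. The submitters' processing notes name FastQC 0.11.7, STAR 2.7.2b, edgeR 3.36.0, limma 3.50.3 and GRCh38, with no role. The counter, annotation, use of strand and treatment of duplicate reads are not given in the sources used here, so 23 of the 42 genes that overlap a gene on the opposite strand, and 10 that overlap one on the same strand, may share reads, and counting intervals cover counting error only. Symbols matched for 58434 identifiers, positions came from GENCODE v29 and promoters from RefSeq. Mitochondrially encoded genes were not analysed here.

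Counts of the 12 knockdown libraries were filtered (filterByExpr, minimum count 10, total 15), scaled by TMM and fitted with edgeR 4.0.16 in R 4.3.3 by robust quasi-likelihood. The covariate was log2 TPX2 CPM without a prior count, with or without siRNA as a factor. A prior count of 2 was used for other log2 CPM values, such as those plotted, the list scores and those fitted by limma on log2 CPM. TPX2 itself was not tested. p-values were adjusted by Benjamini-Hochberg, with a threshold of 0.05. SE is the absolute slope divided by the square root of F. TPX2 is itself measured with error, which was not modelled. The knockdown mean was compared with siNTC in a fit of 16 libraries. Printed CPM use TMM sizes of the 16 libraries. No pair of replicates agreed within sampling noise (chi-square per degree of freedom 4.36 to 9.80 over 24 pairs). p-values measure the spread between these libraries.

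Named genes were the 10 lowest p in each direction within siRNA and the 4 lowest in each direction over 12 libraries (mean count at least 50), up to 3 per list, and 8 mitosis, MYCN and p53 genes whatever their values. Some genes within this rule and the markers are not reported here. IER5, the ribosomal proteins, SERF2 and SLC25A3 were added after their values were seen. The members and lists were chosen with earlier results of these data known. The alternatives tried were DESeq2 1.42.0, limma 3.58.1, RLE or upper-quartile scaling, other filters, thresholds and covariates, a replicate block, and leaving out libraries. The code was tested on simulated data.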

Additional observations from a re-analysis of the deposited data

Results flagged for a closer look

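In each group of 4 libraries, a library was noted when its gap to the nearest of the others, divided by the range of the group, was above Dixon's 95% critical value for 4. This was looked for in 288 groups of named genes and list scores, and 15 were found where chance gives about 14.4.

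Of these, 7 were in si45 replicate 3. That library carried 37.9% of the TPX2 variation within siRNA. Many of the genes examined were chosen for their slopes on TPX2, which partly fixes its share. TPX2 there was 121 CPM against 79.4 to 85.1 CPM in the other 3 (ratio 0.862). The helicase gene MCM5 was at 190 CPM against 128 to 131 (0.957), GFRA2 at 591 CPM against 422 to 436 (0.919) and TSSC4 at 120 CPM against 66.2 to 73.8 (0.858). The translation factors EIF1 and EEF1A1 were low, at 193 CPM against 301 to 307 (0.948) and at 193 CPM against 288 to 294 (0.940), as was RPS2 (0.920). Without this library the slopes on TPX2 were 0.94 for MCM5, 0.84 for GFRA2, 0.48 for TSSC4, -0.70 for EIF1, -0.86 for EEF1A1 and -0.71 for RPS2.

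In si46, TSSC4 (0.893) and SLC25A3 (0.877) stood apart in replicate 4 and KIF11 in replicate 3 (81.8 CPM against 73.3 to 73.8, ratio 0.936). In si47 replicate 3, OCIAD2 was at 44.5 CPM against 62.8 to 64.1 (0.931), and the mean score of the RNA interference genes stood apart (0.844). In siNTC replicate 3, the E2F4 level (0.857) and the S phase score (0.844) did, and in si45 replicate 2 the MYC target score (0.835).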

How the results depend on the processing

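The count within siRNA (42) was 34 with limma-voom, 35 with upper-quartile factors and 36 with at least 10 counts in every library, all among the 42. It was 65 with RLE factors, 207 with DESeq2 (7446 genes with an adjusted p), 64 with limma on log2 CPM, 293 with no low-count filter, 86 with TPX2 on the linear scale, 127 with the total count as a covariate, 3 at an adjusted p under 0.01 and 2 with the 4 siNTC libraries added. From RLE factors on, all 42 were among the genes found, except with DESeq2 (41), the stricter threshold (3) and siNTC added (2). It was 162 without the 2 libraries farthest from the median of TPX2, 0 without the 3 replicate 3 libraries, and 0 to 317 leaving out 1 library. The 12-library count (301) was 566 with DESeq2, 862 with no filter, 64 at an adjusted p under 0.01, 95 without the 2 farthest libraries, 0 without replicate 3, and 0 to 524 leaving out 1 library. The 14 genes of the 42 that differed from siNTC were 31 without replicate 3 of all groups, an alternative added after the data were seen, and 5 to 31 leaving out 1 library. The cause of these moves was not tested. The interaction count was 0 in each of 4 settings.

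Same-numbered libraries deviated together, with r of 0.119 to 0.244 in si45 and si47. The r was 0.080 to 0.263 in si45 and si46 and 0.081 to 0.225 in si46 and si47. With siNTC it was 0.079 to 0.184 for si45, 0.045 to 0.109 for si46 and 0.017 to 0.119 for si47. All same-numbered r were above 0, and not all over 0.1. Differently numbered libraries had r of -0.213 (si45 replicate 1, si47 replicate 3) to 0.096 (si46 replicate 1, siNTC replicate 2). Deviations within a group sum to 0, which ties these r to the same-numbered ones. Fits without a replicate term leave the pairing out. With the replicate block, 0 genes followed TPX2 within siRNA (959 at an unadjusted p under 0.05, edgeR), 49 followed it over 12 libraries, and 30 of the 42 differed from siNTC. The slopes of all 42 kept their sign, against 10113 of 13926 over all genes. The slope of KIF11 was then -0.42 and that of HMMR 0.035.

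The alternatives share libraries with the fit by which many of the 57 named genes were chosen, so their directions are a description. Of 1538 slopes of 57 named genes under the alternatives, 1528 kept their direction. The others were KIF11 and HMMR with the block, KPNA2 (0.41) and HMMR (0.44) without the 2 farthest libraries, KIF11 (-0.038) and HMMR (0.0049) without replicate 3, HMMR (0.023) with the siNTC libraries added, and FOXM1 with the total count as a covariate (-0.0096) and without si45 replicate 2 (-0.016) or si46 replicate 1 (-0.056); leaving out 1 library gave it -0.056 to 0.22.

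Depth limits low genes such as FOS, and TPX2 itself had 334 to 718 counts in the knockdown libraries.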
